A study of Mus musculus with 4 samples.

Results

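Nuclear receptors are transcription factors that tie liver gene expression to small lipophilic molecules, and 41 mouse genes of this family were followed here in the livers of catalase knockout (KO) and wild-type (WT) mice. They were chosen by name: a probe was taken when the accession the array file gives for it belonged to one of the listed receptor genes. The 41 genes were read by 62 probes, out of 20886 named genes and 39429 probes on the array. Of the 41, 22 had a single probe and 19 had more, and each gene was represented by its brightest probe. A few relatives that the list left out, such as Nr1h4, Nr1d1 and Nr0b2, are given separately below.

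A nuclear receptor carries a zinc finger domain that binds short DNA elements and a pocket that holds a ligand such as a fatty acid, an oxysterol, a bile acid, a steroid, a thyroid hormone or a drug. Many pair with a retinoid X receptor, and ligand binding exchanges corepressors for coactivators on the target gene. In hepatocytes they are known for the control of lipid oxidation, bile acid and drug metabolism, gluconeogenesis and the hepatocyte programme itself. Several are constitutive or have no known natural ligand and are called orphan receptors. An array reads the amount of receptor mRNA and not how active the receptor protein is.

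Total RNA from livers of male mice was hybridised to 1-colour Agilent 44K oligonucleotide arrays labelled with Cy3. There were 4 arrays, 1 for each of 4 groups: catalase knockout on a high-fat diet, catalase knockout on a normal diet, wild type on a high-fat diet and wild type on a normal diet. Catalase is an enzyme of the peroxisome and turns hydrogen peroxide into water and oxygen. The high-fat diet drew 60.3% of its calories from fat and the normal diet 18%, and each was fed for 11 weeks, from 29 to 40 weeks of age. The labels give the knockout as catalase knockout with no allele, name no strain, and do not say if each RNA came from a single mouse or from several. No group therefore has a replicate, and no p-value can be given for a difference between 2 arrays.

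Signals are log2 values of the scanner's processed signal minus the array's own 75th percentile, so 0 is the level of a probe at that percentile. They compare 1 probe over the arrays and do not rank different genes, because probes bind with different strength. A diet difference is high-fat minus normal diet and a genotype difference is knockout minus wild type. The error after ± comes from the scanner's error model, is about 0.20 for most genes, and leaves out the spread between animals. A gene was said to have risen or fallen when the difference reached 2-fold, which is 1 on the log2 scale. The 4 comparisons share arrays in pairs, since each array enters a diet and a genotype comparison.

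The arrays were of similar quality. Between 60.3% and 63.9% of probes were well above background by the scanner's own flag, and 0 spots were saturated. Cat itself had scaled log2 signals of 0.95 in KO on the high-fat diet, 1.13 in KO on the normal diet, 4.75 in WT on the high-fat diet and 4.89 in WT on the normal diet for its brighter probe. The genotype difference of Cat was -3.81 on the high-fat diet and -3.76 on the normal diet, the direction the labels give, although the files do not say whether this probe lies in the deleted part. All 11 hepatocyte markers, Alb and Ttr among them, were well above background on every array. Their summed signal was 2267 in KO on the high-fat diet, 2688 in KO on the normal diet, 2705 in WT on the high-fat diet and 2870 in WT on the normal diet, as multiples of the 75th percentile, and so lowest in KO on the high-fat diet. The summed signal of 13 macrophage markers was 96.1 in KO on the high-fat diet, 36.8 in KO on the normal diet, 52.8 in WT on the high-fat diet and 43.9 in WT on the normal diet, in the same unit. That of 12 stellate cell and matrix markers was 74.9, 49.2, 63.0 and 56.6 in the same order, so both were highest in KO on the high-fat diet. In bulk tissue, fewer cells of a type and less RNA per cell cannot be told apart.

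The promoter windows of the NR4A subfamily, the immediate early receptors of which Nr4a1 and Nr4a2 meet the 2-fold rule below, and of Pparg, which had the widest range over the 4 arrays, are shown here. They come from a RefSeq promoter table of build GRCm38.p6 and run 5' to 3' on the gene's strand, from 250 bases before the annotated start to 50 after it. Capitals in the NR4A windows mark TGACG or its reverse complement CGTCA, the core letters of the cyclic AMP response element.
Nr4a1: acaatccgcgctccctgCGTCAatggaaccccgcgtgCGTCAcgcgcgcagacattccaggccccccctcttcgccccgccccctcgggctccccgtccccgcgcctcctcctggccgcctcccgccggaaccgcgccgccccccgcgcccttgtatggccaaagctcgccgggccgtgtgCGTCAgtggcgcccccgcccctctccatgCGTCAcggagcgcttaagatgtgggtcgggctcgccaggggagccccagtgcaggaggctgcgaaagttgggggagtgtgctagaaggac
Nr4a2: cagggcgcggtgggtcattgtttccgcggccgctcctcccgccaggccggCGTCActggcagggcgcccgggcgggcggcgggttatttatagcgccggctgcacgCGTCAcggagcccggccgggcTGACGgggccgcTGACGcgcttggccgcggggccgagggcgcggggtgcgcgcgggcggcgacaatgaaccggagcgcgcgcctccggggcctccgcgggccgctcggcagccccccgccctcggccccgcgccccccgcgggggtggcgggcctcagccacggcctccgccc
Nr4a3: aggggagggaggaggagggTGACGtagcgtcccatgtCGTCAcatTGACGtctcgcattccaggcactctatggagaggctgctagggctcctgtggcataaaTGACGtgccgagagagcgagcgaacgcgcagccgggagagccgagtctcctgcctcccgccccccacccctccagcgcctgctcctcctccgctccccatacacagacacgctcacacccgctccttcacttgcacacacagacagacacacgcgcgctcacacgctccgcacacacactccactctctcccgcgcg
The Nr4a1 window lies at chr15:101266596-101266895 on the plus strand, the Nr4a2 window at chr2:57123954-57124253 on the minus strand and the Nr4a3 window at chr4:48045055-48045354 on the plus strand. Each holds 4 of these matches, the first letter lying 233, 213, 69 and 40 bases before the start in Nr4a1, 200, 144, 123 and 111 in Nr4a2, and 231, 213, 205 and 147 in Nr4a3. None of the 3 windows holds the full palindrome TGACGTCA, and the Nr4a2 window also holds 1 match to TATAAA on either strand. At least 1 TGACG match was present in 20.8% of 32851 promoter windows and in 16 of 58 member windows, 27.6%; those 16 belong to 14 of the 37 member genes with a window.

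The Pparg gene has 3 annotated windows, of which 2 hold the letters AGGTCA, the core to which most nuclear receptors bind, and the other holds none on either strand. Capitals mark it.
Pparg first window: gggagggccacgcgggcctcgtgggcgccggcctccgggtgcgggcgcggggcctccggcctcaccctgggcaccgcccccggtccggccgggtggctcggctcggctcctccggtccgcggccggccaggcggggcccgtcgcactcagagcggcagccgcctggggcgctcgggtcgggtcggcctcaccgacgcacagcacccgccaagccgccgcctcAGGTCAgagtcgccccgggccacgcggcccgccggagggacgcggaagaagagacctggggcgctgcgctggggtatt
Pparg second window: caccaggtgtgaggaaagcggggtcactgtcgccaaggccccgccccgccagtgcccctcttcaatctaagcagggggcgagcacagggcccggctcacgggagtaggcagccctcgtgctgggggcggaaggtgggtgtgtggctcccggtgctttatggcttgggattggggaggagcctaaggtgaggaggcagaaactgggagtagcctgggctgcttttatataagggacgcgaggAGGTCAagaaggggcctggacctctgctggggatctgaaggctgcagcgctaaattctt
The first lies at chr6:115360894-115361193 and the second at chr6:115362099-115362398, both on the plus strand. AGGTCA lies 28 bases before the start in the first and 9 bases before it in the second. It was found on either strand in 16.3% of all promoter windows and in 10 of 58 member windows, 17.2%, which belong to 9 of 37 member genes. These are letter matches and do not show that any factor binds there.

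Most of the family gave a signal above background, although whether each probe binds only its own gene was not tested. Of the 41 genes, 33 were well above background on all 4 arrays, which is 80.5% of the family against 64.9% of all named genes. Another 3 were above background on some arrays, namely Nr6a1 on every array except WT on the high-fat diet, Hnf4g on KO high-fat and WT normal diet, and Rorb on both KO arrays. The remaining 5 were not well above background on any array: Vdr, the vitamin D receptor, Pgr, the progesterone receptor, Nr2e3, the photoreceptor-specific receptor, Nr4a3, and Nr0b1, the adrenal and gonadal repressor DAX-1. For these 5 no difference is given. By array, 36 genes were detected in KO on the high-fat diet, 35 in KO on the normal diet, 33 in WT on the high-fat diet and 35 in WT on the normal diet.

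The spread of the family over the 4 arrays was small. The difference between a gene's highest and lowest array had a median of 0.43 over the 33 genes on all arrays, beside 0.36 over all such genes. It stayed under 1 for 30 of the 33, 90.9%, beside 90.7% of all genes. The 3 with a wider range were Pparg at 1.40, Nr4a2 at 1.20 and Nr4a1 at 1.01. The plot of every detected receptor by array shows these and the narrower majority.

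**Figure D1:**
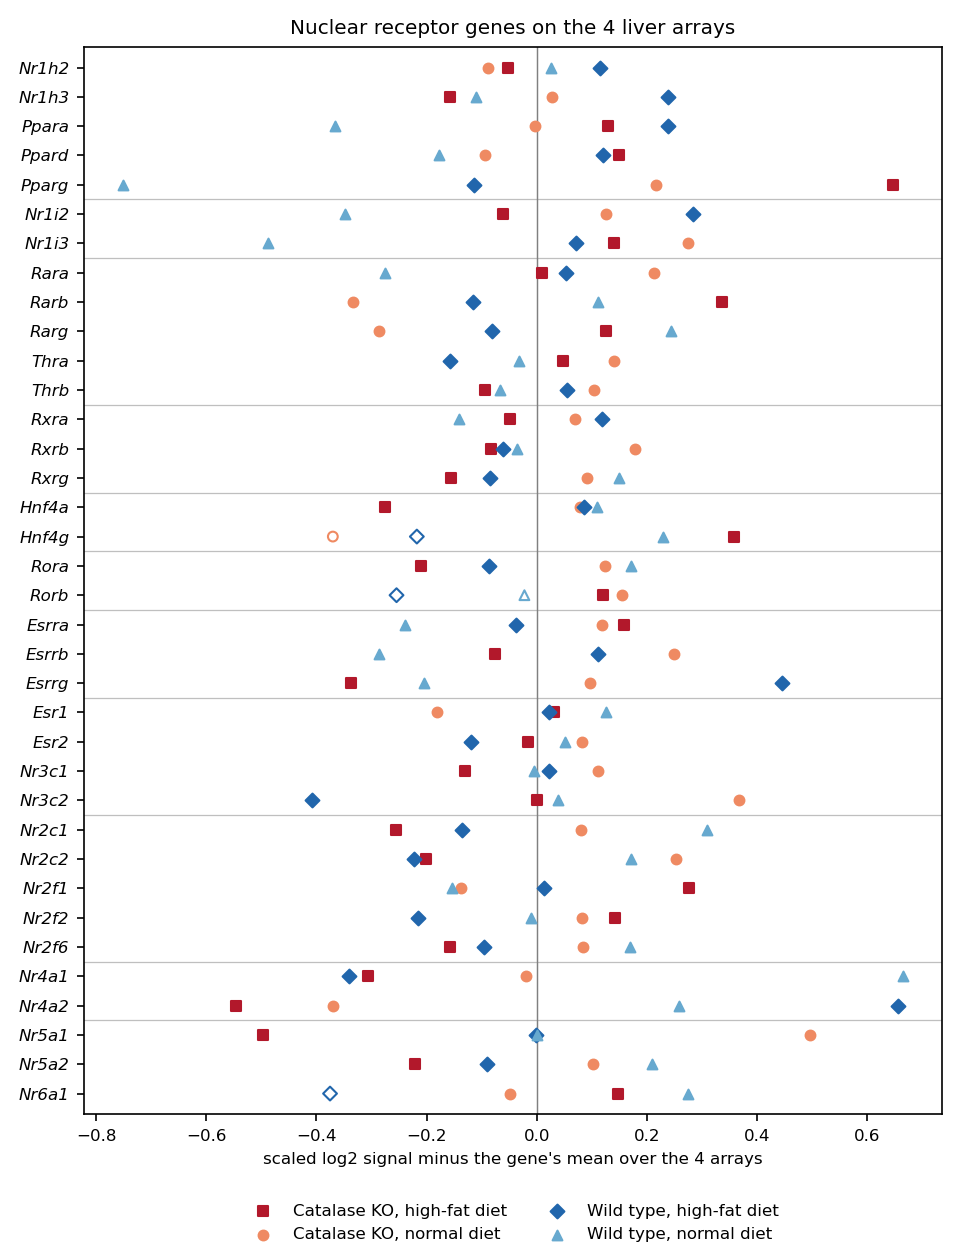
Scaled log2 signal of each nuclear receptor gene detected on at least 1 array, minus that gene's mean over the 4 arrays (x axis, log2 units). Each point is 1 array, hollow where the probe was not well above background, and lines separate role classes. Most genes stay within 0.4 of their mean, a few such as Nr5a1 pass it, and Pparg, Nr4a1 and Nr4a2 reach farthest.

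On the high-fat diet in the knockout, 0 of 36 receptor genes rose and 0 fell by 2-fold, while 5.86% of all named genes did (4.22% higher, 1.64% lower). In wild type, 0 rose and 1 of 35, Nr4a1, fell on the high-fat diet, beside 4.09% of all genes (1.78% higher, 2.31% lower). On the high-fat diet, 0 of 36 were higher in the knockout and 1, Nr4a2, was lower, beside 4.1% of all genes (2.51% higher, 1.59% lower). On the normal diet, 0 of 36 were higher and 0 lower in the knockout, beside 3.9% of all genes (1.4% higher, 2.5% lower). The counts for the family were near or below these background rates.

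At 1.5-fold, Rarb was higher and Nr5a1 lower with diet in the knockout, where 9.52% of all genes were higher and 5.68% lower. With diet in wild type 4 receptors were higher, Ppara, Pparg, Nr1i2 and Esrrg, and 2 were lower, Nr4a1 and Nr6a1, beside 4.45% higher and 6.51% lower of all genes. In the knockout on the high-fat diet Pparg was higher and Esrrg and Nr4a2 were lower, beside 7.34% and 4.36% of all genes. In the knockout on the normal diet Pparg and Nr1i3 were higher and Nr4a1 and Nr4a2 lower, beside 3.89% and 6.65% of all genes.

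The family's median difference was -0.19 for diet in the knockout, -0.00 for diet in wild type, -0.06 for genotype on the high-fat diet and 0.09 for genotype on the normal diet. Over all genes the medians were -0.07, -0.02, -0.04 and -0.01 in that order. Without regard to sign, the receptors' medians were 0.24, 0.27, 0.17 and 0.22, beside 0.20, 0.16, 0.17 and 0.15 for all genes. Differences beyond 2 scanner errors were seen for 7 of 35 receptors for diet in the knockout, 7 of 33 for diet in wild type, 5 of 33 for genotype on the high-fat diet and 10 of 34 for genotype on the normal diet. These shares are 20.0%, 21.2%, 15.2% and 29.4%, beside 20.2%, 13.9%, 16.7% and 12.7% of all genes. By their brightest probes, 15 receptors passed 2 errors in at least 1 comparison, and 18 of those on all arrays did so in none. No share over all genes was computed for this count, so it has no background beside it. Some of the 18 passed 2 errors with another probe. Examples are Esr1 (-1.08 ± 0.28, genotype on the normal diet) and Nr1h3 (-0.46 ± 0.20, genotype on the high-fat diet).

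Among the lipid sensors, Pparg encodes PPARgamma, the fatty acid receptor best known for driving fat cell formation and lipid storage. Its scaled log2 signal was 2.44 in KO on the high-fat diet, 2.01 in KO on the normal diet, 1.68 in WT on the high-fat diet and 1.04 in WT on the normal diet. Both knockout arrays lay above both wild-type arrays, and within each genotype the high-fat array was the higher. The diet differences were 0.43 ± 0.20 in the knockout and 0.64 ± 0.20 in wild type. The genotype differences were 0.76 ± 0.20 on the high-fat diet and 0.97 ± 0.20 on the normal diet. Between the arrays that differ in both genotype and diet, KO on the high-fat diet was 2.64-fold above WT on the normal diet.

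The Pparg probe is one of the few spotted 10 times on each array, so its measurement error can be read directly. The 10 spots ran between 2.35 and 2.54 in KO on the high-fat diet, between 1.93 and 2.09 in KO on the normal diet, between 1.55 and 1.77 in WT on the high-fat diet and between 0.97 and 1.09 in WT on the normal diet. The spot ranges of the 4 arrays did not overlap, and the SD over spots was 0.04 to 0.06. These spots share 1 RNA sample per array, so they measure the array and not the variation among mice.

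Ppara encodes PPARalpha, the receptor that drives fatty acid oxidation in liver and is the target of fibrate drugs. Its brightest probe had 5.31 in KO on the high-fat diet, 5.18 in KO on the normal diet, 5.42 in WT on the high-fat diet and 4.82 in WT on the normal diet. WT on the normal diet was the low array, and the other 3 lay close together. The diet difference was 0.13 ± 0.20 in the knockout and 0.61 ± 0.20 in wild type, and the other 2 probes of the gene gave 0.56 and 0.92 for the wild-type diet difference. The genotype difference was -0.11 on the high-fat diet and 0.36 on the normal diet, both within 2 errors. The other Ppara probes gave 0.13 and -0.43 ± 0.20 on the high-fat diet and 0.57 ± 0.20 and 0.32 on the normal diet, so 1 probe passed 2 errors in each and the probes differ in sign on the high-fat diet.

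Ppard, the more widely expressed PPARdelta, and the liver X receptors Nr1h2 and Nr1h3, which sense oxysterols and induce cholesterol efflux and lipid synthesis genes, moved less. Ppard had 4 positive differences between 0.03 and 0.30. Nr1h3 had 4.14 in KO on the high-fat diet, 4.33 in KO on the normal diet, 4.54 in WT on the high-fat diet and 4.19 in WT on the normal diet, with its largest difference, -0.40, for genotype on the high-fat diet. Nr1h2 stayed between 2.77 and 2.97 on all arrays. By their brightest probes, none of the 3 passed 2 errors in any comparison. The second Nr1h3 probe gave -0.46 ± 0.20 for genotype on the high-fat diet, which is beyond 2 errors.

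The xenobiotic receptors Nr1i2, which encodes the pregnane X receptor PXR, and Nr1i3, which encodes the constitutive androstane receptor CAR, induce drug-metabolising enzymes. Nr1i3 had 3.02 in KO on the high-fat diet, 3.15 in KO on the normal diet, 2.95 in WT on the high-fat diet and 2.39 in WT on the normal diet. Its second probe gave 2.09, 2.28, 2.05 and 1.42 in the same order, again with WT on the normal diet lowest. Nr1i2 had 1.66 in KO on the high-fat diet, 1.85 in KO on the normal diet, 2.01 in WT on the high-fat diet and 1.37 in WT on the normal diet. For both genes WT on the normal diet was the low array, as it was for Ppara. WT on the normal diet was the lowest array for 10 of the 33 receptors on all arrays and the highest for 9. KO on the high-fat diet was the lowest for 13. No share over all genes was computed for the lowest array alone. WT on the normal diet was the highest or lowest array for 57.6% of those receptors, beside 53.4% of all genes.

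In wild type the diet difference was 0.56 ± 0.20 for Nr1i3 and 0.63 ± 0.20 for Nr1i2, while in the knockout it was -0.13 for Nr1i3 and -0.19 for Nr1i2, both within 2 errors. On the normal diet the genotype difference was 0.76 ± 0.20 for Nr1i3 and 0.48 ± 0.20 for Nr1i2, while on the high-fat diet it was 0.07 for Nr1i3 and -0.35 for Nr1i2. These wild-type diet and normal-diet genotype values share the WT normal-diet array. None reached 2-fold.

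**Figure D2:**
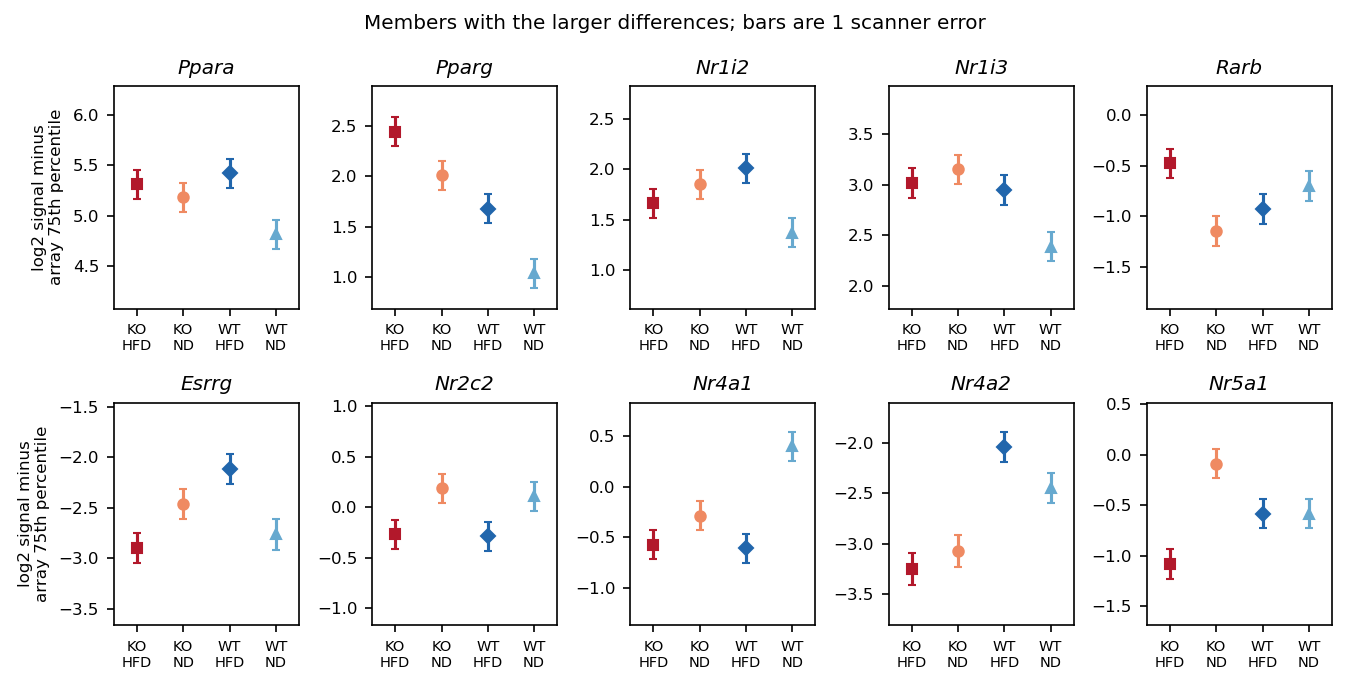
Scaled log2 signal (log2 units above the array's 75th percentile) of 10 receptor genes on the 4 arrays, KO high-fat (HFD), KO normal (ND), WT high-fat and WT normal diet, with bars of 1 scanner error; the y axes start at different levels but span the same number of log2 units. Pparg steps down over the 4 arrays, Ppara, Nr1i2 and Nr1i3 are lowest in WT on the normal diet, and Nr4a2 is lower on both KO arrays than on both WT arrays.

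The retinoic acid receptors bind all-trans retinoic acid, and Rarb is itself a known retinoic acid target gene. Rarb had -0.48 in KO on the high-fat diet, -1.15 in KO on the normal diet, -0.93 in WT on the high-fat diet and -0.70 in WT on the normal diet. KO on the high-fat diet was the high array and KO on the normal diet the low one, with a diet difference of 0.67 ± 0.20 in the knockout and -0.23 ± 0.20 in wild type. The second Rarb probe gave 0.43 ± 0.24 in the knockout and 0.22 ± 0.24 in wild type, so the probes disagree in sign for the wild-type diet. The macrophage and stellate marker sums were also highest in KO on the high-fat diet and lowest in KO on the normal diet, and their part in the Rarb values was not tested.

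Rarg was also lowest in KO on the normal diet, with diet differences of 0.41 in the knockout and -0.32 in wild type and a genotype difference of -0.53 ± 0.20 on the normal diet. Rara had diet differences of -0.20 in the knockout and 0.33 in wild type, and 0.49 ± 0.20 for genotype on the normal diet. By their brightest probes, the thyroid hormone receptors Thra and Thrb stayed within 0.21 in each comparison. Their second probes reached 0.38 for Thra and -0.24 for Thrb, both for genotype on the high-fat diet and within 2 errors. The retinoid X receptors, the shared partners, gave no difference beyond 2 errors from their brightest probes. Over the 4 arrays Rxra lay between -0.87 and -0.61 and Rxrb between 2.88 and 3.15. The second Rxra probe gave -0.44 ± 0.20 for diet in the knockout, beyond 2 errors. For Rxrg the brightest probe was negative in all 4 comparisons and the other probe was positive in all 4, at 0.42, 0.39, 0.45 and 0.42, so no direction is given for that gene.

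Hnf4a, the constitutive receptor central to hepatocyte identity, had 6.46 in KO on the high-fat diet, 6.81 in KO on the normal diet, 6.82 in WT on the high-fat diet and 6.84 in WT on the normal diet. Only KO on the high-fat diet stood lower: the diet difference in the knockout was -0.35 ± 0.20 and the genotype difference on the high-fat diet -0.36 ± 0.20, both within 2 errors. The hepatocyte marker sum was lowest on that array too, and its part was not tested. Hnf4g was at the edge of detection. Its bounds, which are minimum folds, lay between 1.08 and 1.25 over the 4 comparisons. The probe's own dim signals gave 1.36- to 1.66-fold, each within 2 errors. Rora, a circadian and lipid regulator, had differences between -0.34 and -0.05. Nr5a2 encodes the liver receptor homologue LRH-1, which acts on bile acid synthesis genes. It had 2.23 in KO on the high-fat diet and 2.56 in KO on the normal diet. In WT it had 2.36 on the high-fat diet and 2.66 on the normal diet. Its brightest-probe diet differences were -0.32 in the knockout and -0.30 in wild type, within 2 errors. The second probe gave -0.47 ± 0.21 in the knockout, beyond 2 errors, and -0.40 ± 0.21 in wild type.

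Esrrg encodes an oestrogen-related receptor, an orphan class that drives oxidative and gluconeogenic genes. It had -2.90 in KO on the high-fat diet, -2.46 in KO on the normal diet, -2.11 in WT on the high-fat diet and -2.76 in WT on the normal diet. The diet difference was -0.43 ± 0.21 in the knockout and 0.65 in wild type, and the second probe gave -0.52 and 0.58. Genotype differences were -0.78 ± 0.21 on the high-fat diet and 0.30 on the normal diet. Esrrg was the 1 receptor of 33 whose diet differences in the 2 genotypes lay 2-fold or more apart (-1.08 ± 0.30), beside 5.0% of all genes. With a background correction that adds an offset to dim probes, its wild-type diet difference was 0.37 and that for genotype on the high-fat diet was -0.53, and the gap no longer reached 2-fold.

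Esrrb had diet differences of -0.32 in the knockout and 0.40 in wild type, and 0.54 ± 0.21 for genotype on the normal diet. Esrra, a partner of PGC-1alpha in mitochondrial gene expression, was positive in all 4 comparisons, at most 0.36 ± 0.20. Other gaps between the diet differences of knockout and wild type were 0.90 for Rarb, 0.74 for Rarg, 0.72 for Nr4a1, -0.69 for Nr1i3, -0.72 for Esrrb, -0.82 for Nr1i2 and -0.99 for Nr5a1. These gaps are from the brightest probes, and the second Rarb probe had closer diet differences, 0.43 in the knockout and 0.22 in wild type. With 1 array per group none of these gaps has a test. Of the 33 receptors, 14 had diet differences of opposite sign in the 2 genotypes by their brightest probes. The share over all genes was not computed, so this count has no background beside it. Some of the 14 had a difference near 0, such as 0.03 for Nr3c1 in wild type and 0.06 for Nr2f2 in the knockout. For Rarb and Rxra the second probe gave the same sign in both genotypes.

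The NR4A receptors are immediate early genes that respond within a short time to stress, cyclic AMP and other signals. Nr4a1, or Nur77, had -0.57 in KO on the high-fat diet, -0.29 in KO on the normal diet, -0.61 in WT on the high-fat diet and 0.40 in WT on the normal diet. WT on the normal diet was the high array. On the high-fat diet it fell by 1.01 ± 0.20 in wild type, and the diet difference in the knockout was -0.29 ± 0.20. The genotype difference was 0.04 on the high-fat diet and -0.68 ± 0.20 on the normal diet. The wild-type call sits at the threshold: the difference was -0.91 when arrays were scaled to their medians, -0.996 after quantile normalization and -0.90 with the other background correction.

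Nr4a2, or Nurr1, had -3.25 in KO on the high-fat diet, -3.07 in KO on the normal diet, -2.05 in WT on the high-fat diet and -2.44 in WT on the normal diet. Both knockout arrays lay below both wild-type arrays. On the high-fat diet it was lower in the knockout, with a difference of -1.20 ± 0.21 that met the 2-fold rule under every scaling and background correction tried. On the normal diet the genotype difference was -0.63 ± 0.22, and -0.40 when all probes of the gene were averaged. The second probe was well above background only in WT on the high-fat diet, the array on which the brighter probe was also highest.

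Nr5a1, or SF-1, is best known from the adrenal gland and gonads. Its probe had -1.08 in KO on the high-fat diet, -0.09 in KO on the normal diet, -0.58 in WT on the high-fat diet and -0.58 in WT on the normal diet. The wild-type arrays were level and the knockout arrays lay on either side of them. The diet difference in the knockout was -0.99 ± 0.20, just short of 2-fold, and it passed that size when arrays were scaled to their medians (-1.10) or quantile normalized (-1.01). The genotype difference was -0.50 on the high-fat diet and 0.50 on the normal diet. Nr6a1, the germ cell nuclear factor, was 1.57-fold lower on the high-fat diet in wild type. That log2 difference, -0.65 ± 0.45, lay within 2 errors. It rests on a dim signal, since the probe was not well above background in WT on the high-fat diet.

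Of the testicular receptors and COUP-TFs, orphan receptors that mostly repress, Nr2c1 and Nr2c2 were lower on the high-fat diet in both genotypes. Nr2c2 had -0.27 in KO on the high-fat diet, 0.19 in KO on the normal diet, -0.29 in WT on the high-fat diet and 0.11 in WT on the normal diet. Its diet difference was -0.45 ± 0.20 in the knockout and -0.40 ± 0.20 in wild type, and the second probe gave -0.42 and -0.28. For Nr2c1 the diet differences were -0.34 in the knockout and -0.45 in wild type, and -0.46 and -0.81 from its second probe. Of these brightest-probe values, the Nr2c2 knockout and the Nr2c1 wild-type difference passed 2 errors. Nr2f1 had a diet difference of 0.41 ± 0.21 in the knockout, with KO on the high-fat diet its highest array, as it was for the macrophage and stellate marker sums, whose part was not tested. Nr2f2 and Nr2f6 stayed within 0.36 and 0.27 in each comparison.

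The steroid receptors had small differences from their brightest probes. Nr3c1, the glucocorticoid receptor, had 3.11 in KO on the high-fat diet, 3.36 in KO on the normal diet, 3.27 in WT on the high-fat diet and 3.24 in WT on the normal diet. Nr3c2, the mineralocorticoid receptor, had diet differences of -0.37 ± 0.25 in the knockout and -0.45 in wild type, and its genotype differences were 0.41 on the high-fat diet and 0.33 on the normal diet. Esr2 stayed within 0.17. For Esr1, the main liver oestrogen receptor, the brightest probe had a genotype difference of -0.31 on the normal diet, whereas a dimmer probe gave -1.08 ± 0.28, the largest gap between probes of 1 gene.

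Probes of the same gene allow a check of the readings that uses no replicate. In 16 genes a further probe passed the background flag on all 4 arrays, giving 17 pairs, and 16, 14, 14 and 16 of them shared a sign for diet in the knockout, diet in wild type, genotype on the high-fat diet and genotype on the normal diet. The median gap between paired probes was 0.08 to 0.11, and the largest was 0.58 to 0.77. Rxrg disagreed in all 4 comparisons. The other disagreements in sign, visible in the plot of paired probes, were Rarb and Rxra for diet in wild type and Esr1 and Ppara for genotype on the high-fat diet.

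**Figure D3:**
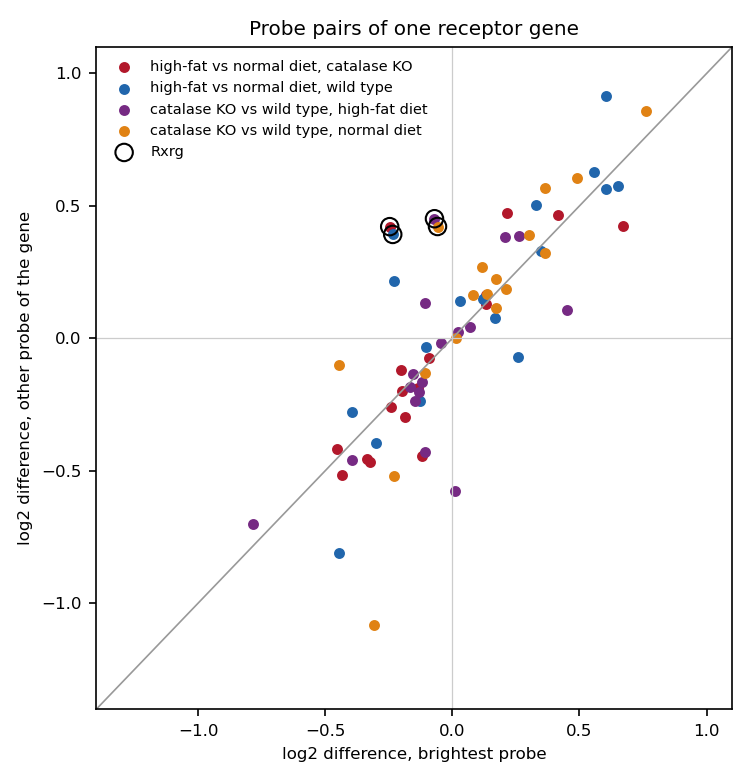
Log2 difference from a gene's brightest probe (x axis) against that from another probe of the same gene (y axis), for 17 probe pairs in each of 4 comparisons, with the line of equality. Most points lie along the line; the circled Rxrg points lie off it in every comparison, and the lowest point is the Esr1 normal-diet genotype difference.

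An additive fit of genotype and diet over all 4 arrays (limma, Benjamini-Hochberg adjusted over 14346 genes) called 0 receptors for either factor. It also called 0 genes in all, 0.0% of those tested, for diet and 0 for genotype, while 1425 (9.93%) and 1041 (7.26%) had an unadjusted p under 0.05. Among 36 receptors, Nr2c1, Nr2c2, Nr3c2 and Pparg were under that level for diet and Nr3c2, Nr4a2 and Pparg for genotype. The smallest adjusted p of a receptor was 0.468 for diet and 0.644 for genotype. For Pparg the fitted effects were 0.53 for diet and 0.87 for genotype, each with an SE of 0.13, and all 4 array pairs were positive. This fit has 1 residual degree of freedom, which is the interaction of the factors.

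The plot of receptors beside target lists sets 8 receptor genes beside genes they are known to regulate, with wide differences for the PPAR, CAR and PXR targets and narrow ones for the HNF4A and LXR targets. The lists were assembled from textbook targets and overlap in a few genes. Of 11 detected PPARgamma targets, 4 rose and 0 fell with diet in the knockout, and 7 rose and 0 fell in wild type. Between genotypes, 3 were higher and 0 lower in the knockout on the high-fat diet, and 6 higher and 1, Lpl, lower on the normal diet. The medians were 0.71, 1.85, 0.54 and 1.51 in that order. Cidec, a lipid droplet protein, rose by 1.96 and 3.32 with diet in KO and WT, and was higher in the knockout by 1.27 on the high-fat diet and 2.63 on the normal diet. Cidea had 0.42, 3.40, 2.04 and 5.03 for the same 4 differences. Cd36, the fatty acid transporter, had 0.75 with diet in KO, rose by 1.85 with diet in WT and was higher in KO by 1.51 on the normal diet. Of the adipose markers, Cfd rose by 3.59 and 2.81 with diet in KO and WT and Fabp4, also on the PPARgamma list, by 1.40 in each, while Adipoq and Lep were not well above background on any array. The summed signal of the adipose, muscle and pancreas markers was 15.8 in KO on the high-fat diet, 8.65 in KO on the normal diet, 14.0 in WT on the high-fat diet and 7.70 in WT on the normal diet, and its part in these calls was not tested.

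Lpl, lipoprotein lipase, is in the same list but took a different course. It rose by 2.16 with diet in the knockout, where the wild-type diet difference was -0.36, and it was higher in the knockout by 1.25 on the high-fat diet and fell by 1.27 against wild type on the normal diet. The macrophage marker sum was likewise highest in KO on the high-fat diet and lowest in KO on the normal diet, and its part was not tested.

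Of 18 PPARalpha targets, 3 rose with diet in the knockout (Pdk4, Fgf21, Vnn1) and 5 in wild type (Cyp4a10, Cyp4a14, Acot3, Fgf21, Vnn1), with 0 lower in either. On the high-fat diet 0 differed between genotypes by 2-fold, and on the normal diet 4 were higher in the knockout and 0 lower. The medians were 0.08, 0.49, -0.07 and 0.30. Cyp4a14, a fatty acid omega-hydroxylase, had 4.75 in KO on the high-fat diet, 4.46 in KO on the normal diet, 5.60 in WT on the high-fat diet and 1.47 in WT on the normal diet. Its low array, WT on the normal diet, was also the low array of Ppara itself. The mitochondrial and peroxisomal targets Cpt2, Ehhadh and Slc25a20 stayed within 0.30 in each comparison.

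Among 15 detected CAR and PXR targets the list split. Cyp2b10, the marker gene of CAR, had 4.73 in KO on the high-fat diet, 4.05 in KO on the normal diet, 4.37 in WT on the high-fat diet and -0.04 in WT on the normal diet, low on that array alone. Cyp2b9 and Cyp2b13 were not well above background in WT on the normal diet. With the probe's own dim signal taken for that array, the wild-type diet difference was 52.6-fold for Cyp2b9 and 78.1-fold for Cyp2b13, both higher on the high-fat diet. Both are close relatives of Cyp2b10 whose probes may cross-hybridise. Cyp3a11, the marker gene of PXR, fell by 1.54 with diet in the knockout and by 1.68 in wild type, and Cyp2c55 and Ces2a fell in both genotypes too. The list therefore had 2 higher and 4 lower for diet in the knockout and 3 higher and 4 lower in wild type. Between genotypes it had 0 and 0 on the high-fat diet, and 3 higher and 1 lower on the normal diet.

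**Figure D4:**
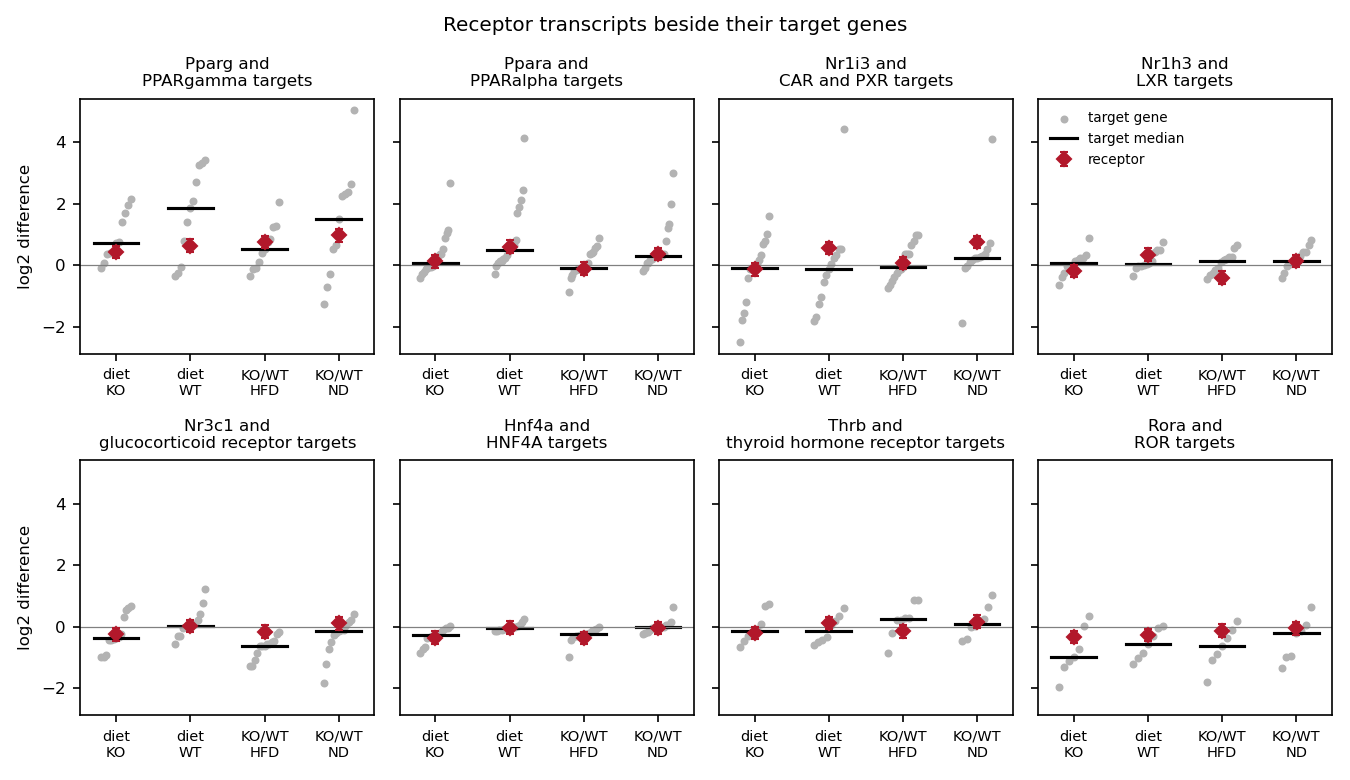
Log2 differences of 8 receptor genes (diamonds, bars of 1 scanner error) beside those of the target genes detected on both arrays (grey points, with a black line at their median), for diet in KO, diet in WT, genotype on the high-fat diet and genotype on the normal diet. Targets of PPARgamma spread up to 5.03, while the receptor genes themselves stay within 1.

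Glucocorticoid receptor targets were below 0 on the high-fat diet in the knockout relative to wild type for 13 of 13 genes, beside 56.9% of all genes, with a median of -0.61, and 3 met the 2-fold rule: Tat fell by 1.07, Tsc22d3 by 1.27 and Zbtb16 by 1.27. On the normal diet 2 were lower in the knockout, the metallothioneins Mt1 (-1.21) and Mt2 (-1.82), and the list's median was -0.13. With diet, 0 were called in the knockout (median -0.36) and 1, Fkbp5, rose by 1.24 in wild type (median 0.04). The hepatocyte markers were also below 0 on the high-fat diet in 11 of 11 (median -0.25), and their part in the glucocorticoid and HNF4A target values was not tested. Nr3c1 itself had genotype differences of -0.15 on the high-fat diet and 0.12 on the normal diet.

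Of 14 HNF4A targets 0 met the rule in any comparison, and the medians were -0.25, -0.04, -0.24 and -0.00 for diet in the knockout, diet in wild type, genotype on the high-fat diet and genotype on the normal diet. On the high-fat diet 14 of 14 were below 0 in the knockout relative to wild type, as were all 11 hepatocyte markers, which share genes such as Ttr, Apob and Serpina1c with this list, and 56.9% of all genes. Among them Cyp7a1, the rate-limiting enzyme of bile acid synthesis, was farthest from 0 at -0.97, and Hnf4a stood at -0.36 there. None of 12 LXR targets met the rule in any comparison either, with Abcg1 at 0.89 for diet in the knockout the farthest from 0. Of 7 detected ROR targets, 3 fell with diet in the knockout and 2 in wild type, and 2 and 1 were lower in the knockout on the high-fat and the normal diet. Avpr1a, a vasopressin receptor gene, had -2.73 in KO on the high-fat diet, -1.43 in KO on the normal diet, -0.96 in WT on the high-fat diet and -0.11 in WT on the normal diet.

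Shorter target lists gave few calls. Of 8 thyroid hormone targets only Me1, malic enzyme, met the rule, higher in the knockout by 1.04 on the normal diet. Of 9 retinoic acid targets measured in wild type, 2 fell with diet: Cyp26a1, which degrades retinoic acid, fell by 1.57, and Crabp1 was at least 5.02-fold lower. Crabp1 was above background in WT on the normal diet alone. Of 8 ERRalpha targets only Pdk4 was called. Of 4 vitamin D targets, Cd14 rose by 2.05 with diet in the knockout and S100g was at least 5.82-fold higher there, while the probe for Vdr was not well above background; Cd14 is also expressed by macrophages.

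Few coregulators met the rule. Of 15 detected coactivators and PGC-1 proteins, Ppargc1b fell by 1.03 with diet in the knockout and Lpin1, a phosphatidate phosphatase that also coactivates PPARalpha, was lower in the knockout on the high-fat diet (-1.13). Ppargc1a, or PGC-1alpha, had -0.25 in KO on the high-fat diet, -0.10 in KO on the normal diet, -0.02 in WT on the high-fat diet and 0.13 in WT on the normal diet. Of 12 corepressors 0 met the rule in any comparison. For diet in the knockout 14 of 15 coactivators were below 0, with a median of -0.14, beside 60.1% of all genes and a median of -0.07.

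Receptor genes outside the list included some with larger differences. Nr1d1, the circadian repressor REV-ERBalpha, had -0.77 in KO on the high-fat diet, 0.61 in KO on the normal diet, -0.28 in WT on the high-fat diet and 0.87 in WT on the normal diet, and fell by 1.38 with diet in the knockout and by 1.14 in wild type. Nr0b2, or SHP, a repressor induced by bile acids, was lower in the knockout on the normal diet (-1.29), at -0.86 in KO and 0.42 in WT. Nr1h4, the bile acid receptor FXR, ranged between 3.88 and 4.26.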

How the data were processed

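The deposited scanner files hold intensity values from Feature Extraction 11.5.1.1, per the file headers: a linear processed signal, already background-subtracted, its error, and flags for spots well above background. The authors extracted values with GeneSpring GX 7.3, per the series' design text; no source used here gives further steps. The value table deposited for the series holds intensity within 1% of the scanner's signal for 99.7% of probes on each array, with column medians of 89.2, 72.4, 75.9 and 79.9 (KO high-fat, KO normal, WT high-fat, WT normal diet) and no centring.

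Control spots and, for probes with several spots, outlier-flagged spots were left out. Spots were averaged per probe, and log2 signals were scaled to each array's 75th percentile. The files carry no symbols, so 27508 probes were named by accession through a RefSeq table of GRCm38.p6, and 11921 were not. Where a probe was well above background on 1 array only, the other array was set to the higher of its lowest well-above-background signal and the probe's own. The fold is a bound in the first case and the probe's own estimate in the second. Receptors given array by array met the 2-fold rule or had 1 of the 3 largest differences in a comparison; Ppara, Nr1i2 and others were added after their values were seen, and lists give up to 4 called genes. The additive model used limma 3.58.1 in R 4.3.3 on genes above background on at least 2 arrays, and other steps used Python 3.11.15, numpy 2.4.6, pandas 2.3.3 and matplotlib 3.10.9. The size rule and the model were run on simulated data with independent noise for each gene. The noise was the scanner error for the size rule, which leaves out the spread between animals, and 1 median residual spread for the model. Neither run held a shift of a whole array, so neither shows how the rule or the model acts under one.

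The members and lists were chosen with earlier results of these data known. Median scaling, quantile normalization, normexp with an offset of 50, the deposited table, averaged probes, a stricter filter and 1.5-fold were tried. The arrays lie on 1 slide in 1 scan.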

Additional observations from a re-analysis of the deposited data

Results flagged for a closer look

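Among the 33 receptors detected on all 4 arrays, Esrrg had the widest gap between diet differences of opposite sign. The gap between the diet difference in the knockout and that in wild type was -1.08 on the log2 scale, from -0.43 in the knockout and 0.65 in wild type. With 1 array per group the difference was not tested. Both probes of the gene gave the same signs. In 5.0% of all 13551 genes detected on the 4 arrays the gap was 2-fold or more.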

How the results depend on the processing

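With 1 array per group every value here rests on single arrays, and the number of arrays limits the precision. Dim receptors such as Rorb, Hnf4g and Nr6a1 lie close to background. Esrrg and Nr4a2 also have low signals, although their brightest probes are well above background on all 4 arrays. The family's median difference kept within the scanner error of 1 gene in 20 of 20 values under alternatives, a wide margin for a median over the family. For genotype on the high-fat diet it went from -0.06 to 0.02 under quantile normalization. For genotype on the normal diet it went from 0.09 to 0.23 under median scaling. Of 160 values for the 8 receptors named by rule, 156 kept within the scanner error. The Nr4a1 and Nr4a2 differences that met the 2-fold rule kept their sign. Some values near 0 changed sign, such as Nr5a1 for diet in wild type, from -0.00 to 0.09 under median scaling. The deposited table, averaged probes and the stricter filter moved none of the counts of receptors. For diet in the knockout the count lower was 1 (Nr5a1) under median scaling, quantile normalization and the 1.5-fold rule, and the count higher was 1 (Rarb) at 1.5-fold. For diet in wild type the count lower was 0 under median scaling, quantile normalization and normexp, where Nr4a1 fell just short, and at 1.5-fold 4 were higher and 2 lower. For genotype on the high-fat diet 1.5-fold gave 1 higher and 2 lower. For genotype on the normal diet median scaling gave 1 higher (Pparg, 1.11) and 1.5-fold gave 2 higher and 2 lower. The number of receptors with diet differences 2-fold apart was 3 under median scaling, 2 under quantile normalization, 0 under normexp and 8 at 1.5-fold; the stricter filter leaves it as it is by construction. Normexp used the median spot signal, the mean not being used here, and its offset shrinks differences of dim probes by construction. Averaging probes moved the Rarb wild-type diet difference to -0.01.

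Median scaling shifted all genes by -0.11 and 0.09 for diet in the knockout and in wild type, and by -0.06 and 0.14 for genotype on the high-fat and the normal diet. Over all genes, the calls for diet in the knockout were 629 higher and 245 lower, and 510 and 323 under median scaling; for genotype on the normal diet they were 206 and 368, and 264 and 285. The limma model called 377 genes for diet and 219 for genotype under median scaling, against 0 and 0 otherwise, and 0 receptors under every alternative; the cause was not tested. No paired analysis was possible because each group has 1 array and the labels give no replicate numbers.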
